A study of Mus musculus with 12 samples.

Results

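The genes described here are 39 mouse genes of G2 and mitosis, the phases of the cell cycle in which a cell prepares to divide and then segregates its chromosomes. They form a list of names of genes with roles in these phases, and they are 39 of the 55401 genes in the deposited count table. All 39 had enough counts to be tested, among 22107 genes tested in all. The RNA came from hepatic double negative T cells, meaning liver T cells that carry neither CD4 nor CD8. They were sorted from the livers of adult C57BL/6 mice as living cells (negative for the dye 7-AAD) positive for CD45 and CD3 and negative for NK1.1. Cells bearing the αβ T cell receptor and cells bearing the γδ receptor were sorted apart, and each kind was sequenced without or with arachidonic acid (AA), a polyunsaturated fatty acid. Sorting came before the 48 hours of AA. The labels give no time in culture for the libraries without AA. Time in culture could therefore differ along with AA and cannot be told apart from it. This gave 4 groups of 3 libraries, 12 in all. The labels do not say whether the 3 libraries of a group came from separate mice or cultures, so p-values measure the spread between these libraries, which may be technical.

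Genes of G2 and mitosis are transcribed in a wave late in the cell cycle. In resting cells the DREAM complex, a repressor built on the MuvB core, holds many of them silent, and in cycling cells MuvB works with B-MYB and then FOXM1 to switch them on. Their products drive entry into mitosis (CDK1 and its cyclins), hold anaphase back until chromosomes are attached (the spindle checkpoint), start anaphase (the anaphase promoting complex) and divide the cell (the central spindle). The sum of these transcripts is commonly read as a measure of how many cells in a sample are dividing. In bulk RNA, fewer dividing cells and less RNA per dividing cell cannot be told apart.

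The promoters of these genes are known for a pair of short elements, the CCAAT box bound by NF-Y and the CHR element bound by MuvB, and 4 of them are shown. These 4 were picked among windows that hold both elements, in order of unadjusted p for AA in αβ cells. That they carry the pair is thus given by the choice. Each window runs from 250 bases before to 50 bases after the annotated gene start, is taken from RefSeq on build GRCm38.p6, and is written on the gene's own strand. Bub1b lies at chr2:118597961-118598260 on the plus strand, Top2a at chr11:99024140-99024439 on the minus strand, Mki67 at chr7:135716330-135716629 on the minus strand and Cdc20 at chr4:118437294-118437593 on the minus strand. Capitals mark CCAAT and the CHR form TTTGAA on either strand, which read ATTGG and then TTCAAA on the opposite one.
Bub1b: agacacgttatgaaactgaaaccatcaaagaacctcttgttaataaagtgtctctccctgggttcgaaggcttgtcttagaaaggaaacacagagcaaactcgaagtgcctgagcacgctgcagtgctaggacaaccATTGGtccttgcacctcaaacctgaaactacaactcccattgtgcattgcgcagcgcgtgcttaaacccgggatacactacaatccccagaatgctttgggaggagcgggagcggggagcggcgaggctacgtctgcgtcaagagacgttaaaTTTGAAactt
Top2a: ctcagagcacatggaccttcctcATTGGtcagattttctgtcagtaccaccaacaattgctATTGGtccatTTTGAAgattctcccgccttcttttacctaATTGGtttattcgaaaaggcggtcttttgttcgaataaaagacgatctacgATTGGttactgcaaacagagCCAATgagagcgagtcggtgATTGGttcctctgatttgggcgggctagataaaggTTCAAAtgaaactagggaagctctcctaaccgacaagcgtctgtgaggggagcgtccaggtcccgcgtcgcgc
Mki67: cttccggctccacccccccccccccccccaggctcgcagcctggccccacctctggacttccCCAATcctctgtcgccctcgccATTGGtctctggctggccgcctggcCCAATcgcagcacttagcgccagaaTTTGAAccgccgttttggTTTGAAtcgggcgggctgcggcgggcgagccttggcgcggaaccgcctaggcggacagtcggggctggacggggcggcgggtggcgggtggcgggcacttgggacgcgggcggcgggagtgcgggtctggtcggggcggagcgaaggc
Cdc20: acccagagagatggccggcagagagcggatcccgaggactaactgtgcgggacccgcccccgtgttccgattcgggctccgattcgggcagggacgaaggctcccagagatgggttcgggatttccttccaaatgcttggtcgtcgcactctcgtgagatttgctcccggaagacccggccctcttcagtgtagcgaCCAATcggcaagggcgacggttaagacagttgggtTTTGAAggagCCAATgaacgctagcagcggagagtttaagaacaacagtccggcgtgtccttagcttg

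The 4 windows differ in layout. The Top2a window holds several boxes in both orientations and a CHR in each orientation, whereas the Bub1b window holds a single box and a single CHR close to its 3′ end. RefSeq windows were at hand for 33 of the 39 genes, 35 windows in all, and not for Tpx2, Kif20a, Ccna2, Aurkb, Spc24 and Pbk. CCAAT in either orientation was present in 28 of the 35 windows (80.0%), against 37.4% of all 32851 windows of the same length. The form TTTGAA was present in 28 windows (80.0%), against 17.9% of all windows. Both elements together were present in 25 windows (71.4%), against 6.95% of all windows. The second CHR form, TTTAAA, which reads the same on both strands, was present in 8 windows (22.9%) against 13.2%, and at least 1 of the 2 CHR forms in 31 windows (88.6%) against 27.6%. The searched forms of the E2F site, an element better known from genes of G1 and S phase, were present in 1 window (2.86%) against 1.84%. The 1 window was that of Cdk1. None of the searched elements was present in the windows of Nuf2, Mad2l1 and Nusap1. Of 68 CCAAT matches, 50 began within 120 bases before the gene start, and of 36 matches to TTTGAA, 29 began between 50 bases before and 50 bases after it. Prc1 and Ect2 had 2 windows each, so the same site can be counted again in these numbers. By gene, CCAAT and TTTGAA were each present in 26 of 33. These are matches of letters in a window and not measured binding sites.

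**Figure D1:**
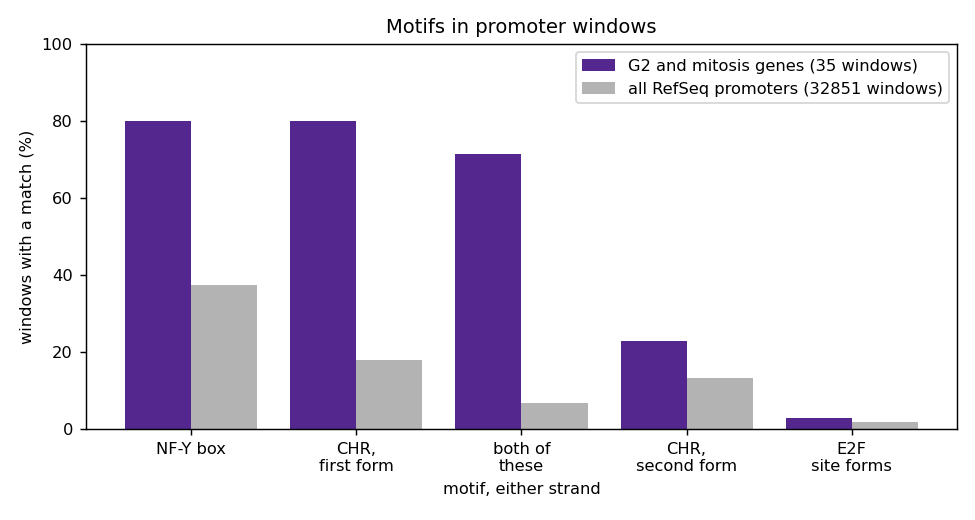
Share of promoter windows (percent, vertical axis) with at least 1 match to each element on either strand, for the 35 windows of G2 and mitosis genes and for all 32851 windows. The NF-Y box and the first CHR form each reach 80.0% in the former, against 37.4% and 17.9% in the latter.

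Total counts per library ran from 6036487 in the library of αβ cells with AA, replicate 3, to 30548253 in that of αβ cells without AA, replicate 3, and levels are given as CPM, a gene's count scaled to a fixed library total that counts all genes. All 13 genes of a T cell marker list were detected in all 12 libraries. Trdc, the γδ receptor constant gene, did not follow the labels throughout. Per count of the CD3 genes it stood at 0.0178 and 0.0243 in replicates 1 and 2 of αβ cells without AA but at 0.354 in replicate 3. In γδ cells without AA it stood at 0.361 and 0.427 in replicates 1 and 2 but at 0.0292 in replicate 3. In αβ cells with AA it lay between 0.131 and 0.358, above the first 2 αβ libraries without AA in all 3, and in γδ cells with AA between 0.230 and 0.518. The 2 libraries labelled replicate 3 without AA thus stood with the other label, and the main AA results are also given without them. The 3 αβ libraries with AA are that whole group and cannot all be left out. The repeat genes Gm10800 and Gm21738 took 23.1% of the counts of αβ replicate 3 with AA and at most 1.48% of any other library, which lowers every other CPM in that library. The spread between libraries was wide: the common biological coefficient of variation was 1.21.

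The G2 and mitosis genes together took a smaller mean share of the counts in the libraries with AA, in both kinds of cell. Their summed level in αβ cells was 3337, 3392 and 2346 CPM without AA and 2304, 1622 and 2229 CPM with AA. The αβ groups were only just apart, and with the repeat genes left out of the totals they overlapped: replicate 3 with AA was then at 2897 CPM and the library labelled replicate 3 without AA at 2350 CPM. In γδ cells the sum was 2075, 2841 and 3920 CPM without AA and 1574, 1334 and 1290 CPM with AA. The γδ groups did not overlap with or without the repeat genes, and the 3 γδ libraries with AA had the lowest sums of all 12. The group means were 3025 ± 588 and 2052 ± 374 CPM in αβ cells and 2945 ± 927 and 1400 ± 153 CPM in γδ cells (SD, n = 3 each), so the sum without AA was 1.47 times that with AA in αβ cells and 2.10 times in γδ cells. Without the 2 libraries labelled replicate 3 without AA these ratios were 1.64 and 1.76, and without the repeat genes 1.34 and 2.12. The share of counts from mitochondrial genes moved with the αβ contrast: it was 2.48%, 2.27% and 1.09% without AA and 5.43%, 4.53% and 2.54% with AA, without overlap, and its part in the result was not tested.

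Per count of the CD3 genes, the T cell receptor's signalling chains, the αβ ratio depended on which libraries were used. The 39 genes gave 16.0, 14.0 and 4.12 counts per CD3 count in αβ cells without AA and 14.9, 39.8 and 9.57 with AA, so the mean with AA was 1.89 times that without, and 1.43 times when the library labelled replicate 3 without AA was left out. It was 1.08 times without replicate 2 with AA, which had 693 CD3 counts, and 0.816 times without both of these libraries. In γδ cells they gave 3.04, 4.57 and 9.83 without AA and 3.92, 2.39 and 4.25 with AA. The γδ ratio of means was 0.605 over all libraries and 0.925 without the library labelled replicate 3. On this scale the groups overlapped in both kinds of cell. The 13 T cell markers summed to 2673 to 3752 CPM in αβ cells without AA and 564 to 1368 CPM with AA, and all 13 had negative log2 fold changes, with a median of −1.52. Among them Lck, the kinase that starts T cell receptor signalling, passed the adjusted threshold. In γδ cells the same list summed to 3361 to 4556 CPM without AA and 2913 to 4849 CPM with AA.

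**Figure D2:**
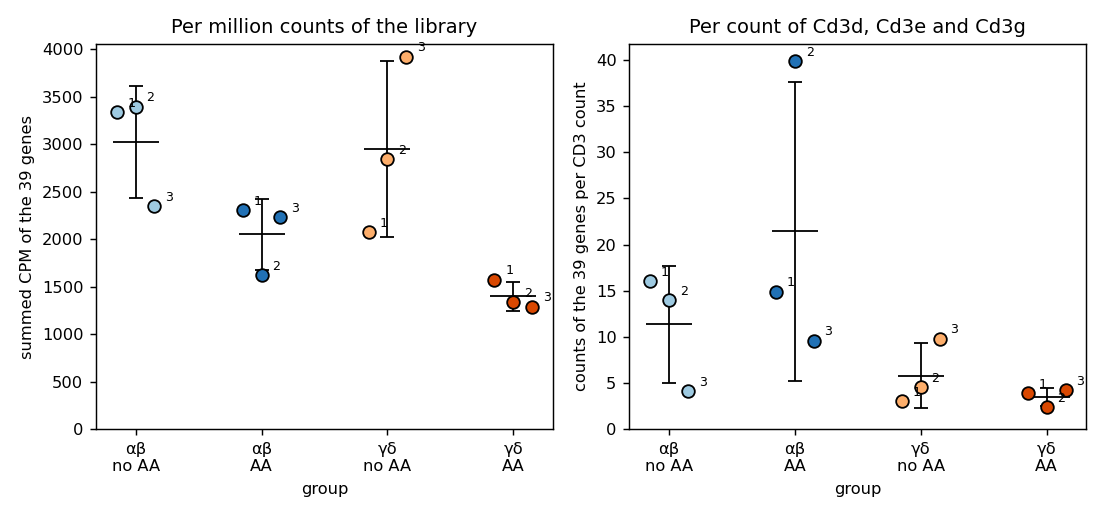
Summed level of the 39 genes in each library, in CPM (left) and as counts per count of Cd3d, Cd3e and Cd3g (right); points are libraries numbered by replicate, bars are the mean ± SD of 3. On the left γδ cells with AA lie between 1290 and 1574 CPM, under all those without AA, and the αβ groups are just apart, at 2304 and 2346 CPM; on the right the groups overlap.

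Markers of other cells varied between the same libraries. The macrophage and monocyte list, with 5 of 14 genes detected in all 12 libraries, summed to 1802 to 23760 CPM in αβ cells without AA and 6331 to 16040 CPM with AA. In γδ cells it summed to 3914 to 36320 CPM without AA and 8565 to 22450 CPM with AA. Most of each sum was 1 gene, Lyz2. It was at 1672 to 22780 and 6019 to 15300 CPM in αβ cells without and with AA. In γδ cells it was at 3626 to 35050 and 8273 to 21970 CPM. Over the 12 libraries Csf1r lay between 17.5 and 391 CPM, while Clec4f, Vsig4 and C1qc reached at most 1.91, 0.497 and 2.70 CPM. The dendritic cell list, with 5 of 8 genes detected in all libraries, summed to 55.3 to 180 CPM in γδ cells without AA and 701 to 2571 CPM with AA, without overlap, and to 40.4 to 394 and 83.8 to 396 CPM in αβ cells. Most of the sum in γδ cells with AA was 1 gene, Fscn1, at 2445, 608 and 1142 CPM. Of the 8 dendritic cell genes, 3 were higher with AA without overlap in γδ cells and 1 was lower. The B cell list, with 6 of 6 genes detected, summed to 1342 to 8395 and 2489 to 9614 CPM in αβ cells and to 901 to 5748 and 575 to 1856 CPM in γδ cells without and with AA. The neutrophil list, with 6 of 9 genes detected in all libraries, summed to 224 to 3305 and 464 to 1533 CPM in αβ cells and, just without overlap, to 344 to 1706 and 1708 to 3506 CPM in γδ cells. Mpo, Elane and Ngp made up most of these sums. Ly6g was at 16.7 CPM in γδ replicate 3 with AA and at most 1.94 CPM elsewhere, and Retnlg was at most 1.76 CPM. The basophil and mast cell list, with 6 of 7 genes detected, summed to 441 to 3766 and 673 to 7534 CPM in αβ cells and to 148 to 2269 and 292 to 659 CPM in γδ cells. Like B cells, macrophages, monocytes and dendritic cells, neutrophils, basophils and mast cells do not carry CD3, on which the cells were sorted. In αβ cells the NK cell list (2 of 5 genes detected in all libraries) was lower with AA without overlap, at 82.5 to 124 and 22.6 to 67.9 CPM. Klrk1 made up most of these NK sums, except in αβ replicate 1 with AA, where it was at 27.4 and Klra8 at 30.6 CPM. The hepatocyte list (1 of 8) was higher with AA without overlap in αβ cells, at 9.77 to 25.2 and 33.5 to 101 CPM. Most of these sums was 1 gene, Trf, at 21.2, 5.38 and 22.9 CPM without AA and 79.4, 32.7 and 28.7 CPM with AA. Of the 5 hepatocyte genes tested, 2 were higher without overlap and 1 was lower. In γδ cells the NK list summed to 66.8 to 218 and 71.6 to 133 CPM and the hepatocyte list to 12.9 to 24.7 and 18.2 to 43.7 CPM. No gene of these lists was at 0 in all 12 libraries. The part of these cells in the results was not tested.

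With AA in αβ cells, 34 of the 39 genes had a negative log2 fold change, with a median of −0.67, against a median of 0.12 and 46.7% negative over all genes tested. No single gene passed an adjusted p of 0.05 in edgeR's quasi-likelihood test (Benjamini-Hochberg over all genes), which called 0.0136% of all genes. DESeq2 called 1 of the 39, Cenpe, and 2% of all genes, and voom called 0 of the 39 and 0.276% of all genes. At an unadjusted p under 0.05, 11 of the 39 were lower and 0 higher, against a background of 6.01% lower and 4.23% higher. The CPM of 10 genes was lower with AA without overlap (background 7.97%) and that of 1 gene, Iqgap3, was higher without overlap (background 9.42%). The count of 11 depends on the libraries and the scaling: it was 6 without αβ replicate 1 and 3 without αβ replicate 2, both without AA, and 5 without αβ replicate 2 with AA, and it was 2 with DESeq2's size factors. The share of all genes by unadjusted p was not counted in those fits. Under those size factors the median of all genes moved from 0.12 to 0.51 and that of the 39 genes from −0.67 to −0.30, so the gap between them was −0.79 and −0.80. With a filter of 5 CPM in 3 libraries the gap was smaller, at −0.37, with medians of −0.35 for the 39 and 0.02 over all genes. Under the size factors, and also under that filter, 28 of the 39 genes were negative in place of 34. Without both libraries labelled replicate 3 without AA the median of the 39 was −0.89. The count of 10 was 8 with the repeat genes left out (background 6.28%), where Ube2c and Cdca3 overlapped, and 20 without the library labelled replicate 3 without AA, and 17 without replicate 1 or without replicate 3 with AA. The background then was 11.7%, 12% and 11.8%.

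With AA in γδ cells, 38 of the 39 genes had a negative log2 fold change, with a median of −1.21, against −0.06 and 52.7% negative over all genes tested. The exception was Anln, the actin-binding scaffold of the contractile ring, at 0.53 ± 1.24 (SE). No gene passed the adjusted threshold in edgeR's test, which called 0.00905% of all genes; DESeq2 called Spc24 and Iqgap3 and 1.43% of all genes, and voom called 0 of the 39 and 0.095% of all genes. At an unadjusted p under 0.05, 19 of the 39 were lower and 0 higher, against 3.85% lower and 3.38% higher over all genes. The CPM of 20 genes was lower with AA without overlap (background 6.45%) and that of 0 was higher (background 5.19%). Without the library labelled γδ replicate 3 without AA, the count of 19 was 11, and without both libraries labelled replicate 3 it was 9, with a median of −1.01. The count of 20 became 22 without the library labelled γδ replicate 3 without AA (background 10.5%), and 34 without γδ replicate 1 without AA (background 11.4%).

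The 2 contrasts have no library in common. A negative log2 fold change was found in both for 33 genes, against 5850 of all 22107 genes tested. Lower CPM without overlap in both was found for 6 genes (Top2a, Bub1b, Ube2c, Ndc80, Pbk and Cdca3), against 238 of all 22107 genes tested, though Ube2c and Cdca3 overlapped in αβ cells without the repeat genes in the totals, and an unadjusted p under 0.05 in both for 8, which add Cdc20 and Spc24, against 108 of all genes tested.

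**Figure D3:**
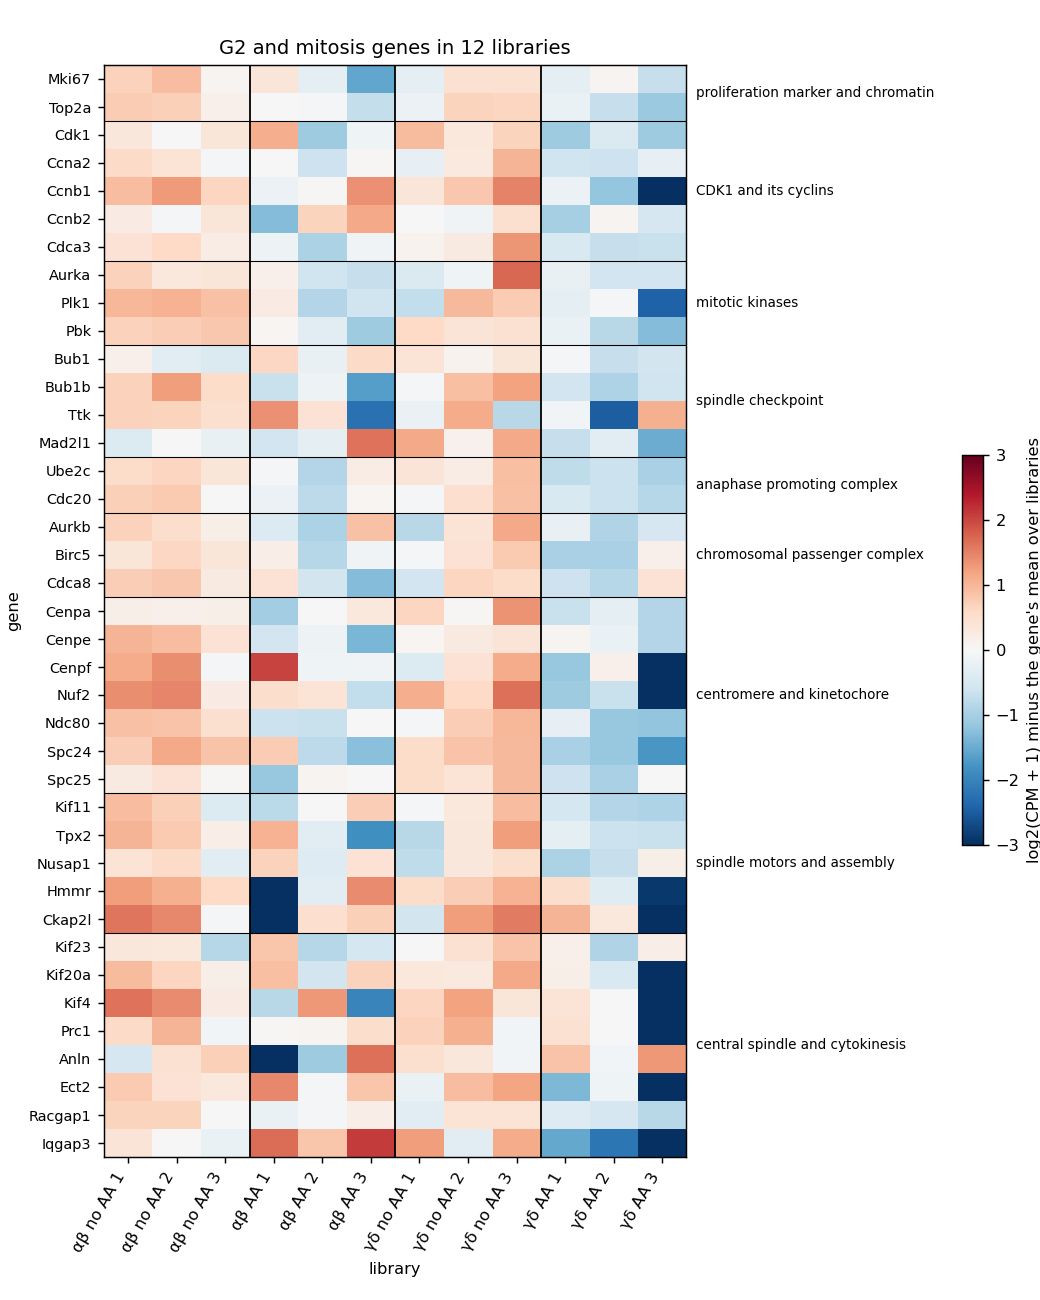
Level of each of the 39 genes (rows, by role) in the 12 libraries (columns), as log2(CPM + 1) minus the gene's mean over libraries; values beyond the colour scale are drawn at its ends. Red prevails in the libraries without AA, and the darkest blue cells of γδ cells with AA are mostly in replicate 3, where 4 genes are at 0.

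Mki67 and Top2a, the usual marker of proliferating cells and the topoisomerase that untangles sister chromatids, had negative log2 fold changes in both contrasts. Top2a was at 259, 253 and 170 CPM in αβ cells without AA and at 155, 148 and 92.8 CPM with AA, and at 135, 242 and 241 CPM in γδ cells without AA and at 132, 93.8 and 70.5 CPM with AA. Neither contrast overlapped, though in γδ cells replicate 1 without AA was only just above replicate 1 with AA. The log2 fold change was −0.98 ± 0.31 (SE) in αβ cells and −1.08 ± 0.31 in γδ cells, with adjusted p of 0.402 and 0.635 in edgeR's test. Mki67 was at 124, 146 and 80.4 CPM in αβ cells without AA and at 97.6, 62.3 and 25.3 CPM with AA. In γδ cells it was at 63.1, 106 and 106 CPM without AA and at 63.5, 80.3 and 46.7 CPM with AA. Both pairs of groups overlapped, and the log2 fold changes were −1.16 ± 0.41 and −0.55 ± 0.40.

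CDK1 and its cyclins start mitosis. Ccnb1, the cyclin that activates CDK1 at mitotic entry, was at 81.3, 104 and 66.9 CPM in αβ cells without AA and at 37.4, 43.2 and 110 CPM with AA. The γδ values were 54.2, 74.7 and 119 CPM without AA and 37.3, 18.3 and 0 CPM with AA. The αβ groups overlapped because replicate 3 with AA was the highest of the 6, and the γδ groups did not. The log2 fold changes were −0.48 ± 1.10 and −2.19 ± 1.14, with adjusted p of 0.903 and 0.635 in edgeR's test. A pseudogene of Ccnb1 reached at most 11.5 CPM, and its reads may be shared with the gene.

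Cdk1 itself was at 14.2, 11.1 and 14.4 CPM in αβ cells without AA and at 24.6, 4.76 and 9.94 CPM with AA. Its γδ levels were 22.1, 14.0 and 17.97 CPM without AA and 4.70, 7.89 and 4.74 CPM with AA. The αβ values with AA lay on both sides of those without, and the αβ log2 fold change of −0.25 ± 0.74 changed sign under other scalings. The γδ groups did not overlap, at −1.70 ± 0.76. Cdca3, which helps degrade the CDK1 inhibitor WEE1, was at 110, 123 and 94.3 CPM in αβ cells without AA and at 72.9, 41.7 and 75.2 CPM with AA. For γδ cells the values were 87.2, 98.4 and 205 CPM without AA and 59.1, 50.04 and 50.8 CPM with AA. Neither contrast overlapped, though the αβ one did without the repeat genes, at −0.94 ± 0.38 and −1.31 ± 0.39. Ccna2, the cyclin of S and G2 phase, had log2 fold changes of −0.67 and −0.96, and 12.5% of its exon bases overlap the opposite-strand gene Exosc9. Ccnb2, another B-type cyclin, lay between 1.00 and 9.77 CPM, and a pseudogene of it reached 5.004 CPM, so its level is uncertain.

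The 3 mitotic kinases had negative log2 fold changes in both contrasts. Pbk, a kinase active in mitosis, was at 39.7, 40.8 and 43.2 CPM in αβ cells without AA and at 25.1, 19.0 and 11.1 CPM with AA. In γδ cells Pbk was at 37.0, 31.8 and 33.5 CPM without AA and at 20.9, 13.3 and 9.21 CPM with AA. Both contrasts were clear of overlap. The log2 fold changes were −1.38 ± 0.49 and −1.28 ± 0.49, with adjusted p of 0.413 and 0.635 in edgeR's test. Plk1, the kinase that matures centrosomes and promotes mitotic entry and exit, was at 24.1, 24.9 and 21.9 CPM in αβ cells without AA and at 13.9, 5.82 and 7.29 CPM with AA. In γδ cells it was at 6.52, 23.4 and 20.3 CPM without AA and at 9.29, 11.2 and 1.33 CPM with AA, so the γδ groups overlapped through replicate 1 without AA. Aurka, the centrosomal Aurora kinase, had −1.01 ± 0.48 and −1.21 ± 0.48, and its 223 CPM in γδ replicate 3 without AA was far above the 49.4 and 61.7 CPM of the other γδ libraries without AA.

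The spindle checkpoint holds anaphase back, and its 4 genes had log2 fold changes of both signs in αβ cells and of negative sign in γδ cells. Bub1b encodes BUBR1, part of the complex that inhibits the anaphase promoting complex. It was at 66.9, 98.3 and 60.4 CPM in αβ cells without AA and at 25.4, 36.9 and 12.4 CPM with AA, and at 40.0, 77.0 and 95.4 CPM in γδ cells without AA and at 27.0, 21.1 and 26.5 CPM with AA. All 6 libraries with AA lay under all 6 without. The log2 fold changes were −1.81 ± 0.46 in αβ cells, the largest negative of the 39, and −1.52 ± 0.45 in γδ cells, with adjusted p of 0.270 and 0.635 in edgeR's test.

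Mad2l1, which encodes MAD2, the protein that captures CDC20, was at 15.2, 20.2 and 17.3 CPM in αβ cells without AA and at 13.5, 16.6 and 65.1 CPM with AA. The γδ values were 45.9, 22.6 and 46.0 CPM without AA and 12.2, 16.2 and 6.60 CPM with AA. The αβ groups overlapped, with replicate 3 with AA far above the rest, at 0.80 ± 0.70, while the γδ groups did not overlap, at −1.77 ± 0.72. Bub1, the kinase that recruits checkpoint proteins to kinetochores, was at 65.5, 47.1 and 43.1 CPM in αβ cells without AA and at 91.0, 50.1 and 87.1 CPM with AA. Its γδ levels were 77.8, 62.7 and 75.7 CPM without AA and 56.8, 35.9 and 39.8 CPM with AA. The αβ groups overlapped and the γδ groups did not. Ttk, the MPS1 kinase, overlapped in both contrasts, at −0.45 ± 1.10 and −0.15 ± 1.10.

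**Figure D4:**
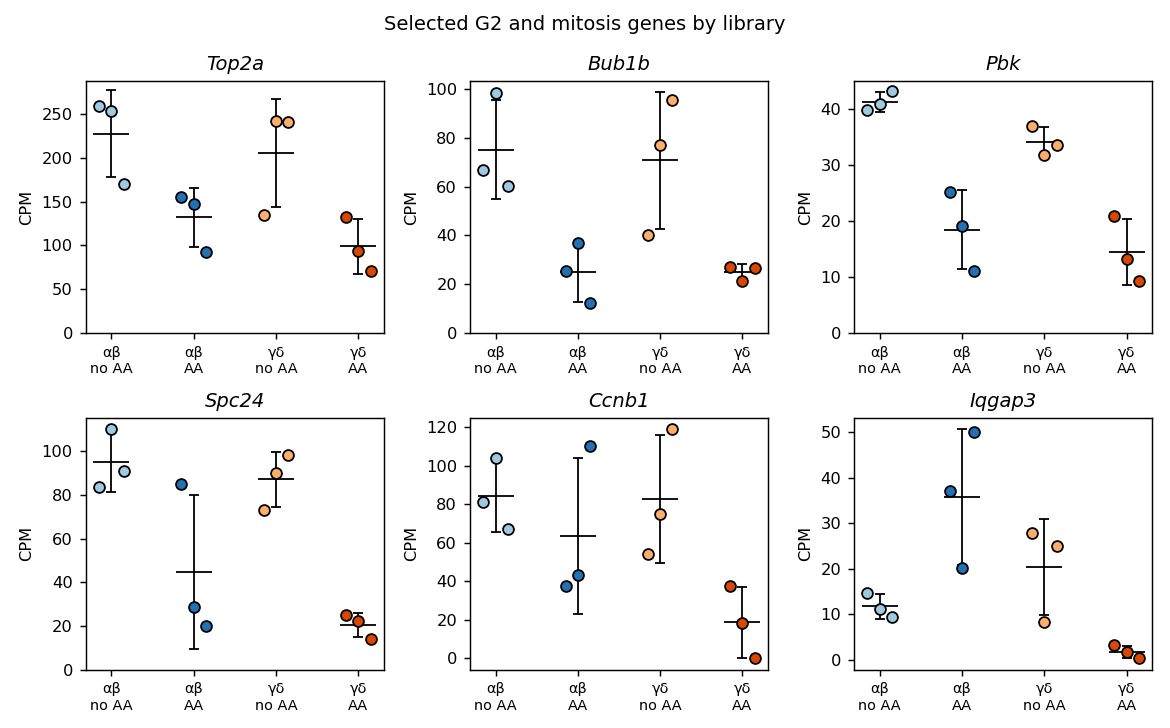
Level in CPM of 6 genes in each group; points are libraries and bars are the mean ± SD of 3. Top2a, Bub1b and Pbk are lower with AA without overlap in both kinds of cell, Spc24 and Ccnb1 in γδ cells, and Iqgap3 is higher with AA in αβ cells and lower in γδ cells.

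Both genes of the anaphase promoting complex group were lower with AA by unadjusted p in both contrasts. Cdc20, the activator that directs the complex to securin and cyclin B, was at 193, 203 and 116 CPM in αβ cells without AA and at 103, 67.4 and 123 CPM with AA. For γδ cells the values were 114, 166 and 216 CPM without AA and 85.5, 74.4 and 64.6 CPM with AA. The αβ groups overlapped through replicate 3 of each, the γδ groups did not, and the log2 fold changes were −0.94 ± 0.35 and −1.17 ± 0.35. Ube2c, its ubiquitin-conjugating enzyme, was at 92.5, 99.0 and 80.8 CPM in αβ cells without AA and at 61.6, 34.1 and 74.4 CPM with AA. In γδ cells it was at 82.8, 74.4 and 118 CPM without AA and at 36.8, 40.2 and 31.6 CPM with AA. Neither contrast overlapped, though the αβ one did without the repeat genes, at −0.82 ± 0.38 and −1.38 ± 0.38 with adjusted p of 0.486 and 0.635 in edgeR's test. Exons of Ube2c overlap the opposite-strand gene Tnnc2 over 22.8% of their bases, and no source used here gives the strand setting of the counts.

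The chromosomal passenger complex corrects wrong attachments at centromeres. Cdca8, its Borealin subunit, was at 164, 171 and 118 CPM in αβ cells without AA and at 131, 66.2 and 38.8 CPM with AA, and at 65.5, 153 and 143 CPM in γδ cells without AA and at 63.3, 53.4 and 132 CPM with AA. Both contrasts overlapped, at −1.18 ± 0.45 and −0.54 ± 0.45. Birc5, which encodes survivin, had −0.82 ± 0.38 and −0.94 ± 0.38, with no overlap in αβ cells. Aurkb, its kinase, had −0.50 ± 0.53 and −0.98 ± 0.54 and overlapped in both.

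The 7 centromere and kinetochore genes were all negative in both contrasts, with medians of −1.20 in αβ cells and −1.47 in γδ cells. Cenpe, a motor that carries chromosomes to the spindle equator, was at 109, 103 and 72.1 CPM in αβ cells without AA and at 35.3, 48.2 and 20.04 CPM with AA. The γδ values were 55.5, 64.4 and 69.8 CPM without AA and 56.9, 46.6 and 28.4 CPM with AA. The αβ groups were apart and the γδ groups overlapped. Its αβ log2 fold change of −1.65 ± 0.39 had the smallest adjusted p of the 39 there, 0.265 in edgeR's test and 0.0315 in DESeq2, and its γδ value was −0.56 ± 0.38.

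Spc24, a subunit of the NDC80 complex that holds microtubules, was at 83.6, 110 and 90.9 CPM in αβ cells without AA and at 85.0, 28.5 and 20.2 CPM with AA. Its γδ levels were 73.2, 89.9 and 98.2 CPM without AA and 24.9, 22.2 and 14.2 CPM with AA. The γδ groups were far apart, while in αβ cells replicate 1 with AA lay among those without. Its γδ log2 fold change of −2.13 ± 0.46 had an adjusted p of 0.264 in edgeR's test, 0.0247 when genes with low counts were kept in the fit, and 0.00335 in DESeq2. Ndc80, of the same complex, had −1.30 ± 0.47 and −1.47 ± 0.47 without overlap in either contrast. Spc25 and Nuf2, its remaining subunits, had −0.66 ± 0.61 and −1.20 ± 1.05 in αβ cells, with overlap, and −1.23 ± 0.62 and −2.73 ± 1.11 in γδ cells, without. Cenpf, a kinetochore protein of G2 and mitosis, overlapped in both contrasts, at −0.22 ± 0.98 and −1.52 ± 1.01. Cenpa, the histone H3 variant that marks centromeres, was at 112, 110 and 112 CPM in αβ cells without AA and at 47.3, 98.5 and 122 CPM with AA. For γδ cells the values were 154, 101 and 252 CPM without AA and 61.8, 80.0 and 53.4 CPM with AA, without overlap, at −1.42 ± 0.43.

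The 5 genes of spindle motors and assembly were negative in both contrasts, none with an unadjusted p under 0.05 in αβ cells and 1 in γδ cells. That gene was Kif11, the motor that pushes spindle poles apart, at −1.26 ± 0.49. Tpx2, which activates Aurora A on the spindle, was at 150, 127 and 84.4 CPM in αβ cells without AA and at 153, 57.8 and 20.04 CPM with AA. In γδ cells Tpx2 was at 40.9, 94.1 and 176 CPM without AA and at 60.7, 47.1 and 45.8 CPM with AA. Its groups overlapped in both, with values spread over several fold within a group. Nusap1, a microtubule bundling protein, was nearly level in αβ cells at −0.11 ± 0.42. Hmmr, a spindle protein that works with TPX2, had −0.77 ± 0.97 in αβ cells, with overlap, and −1.22 ± 0.97 in γδ cells, without. Ckap2l, a further spindle protein, was at 0 in αβ replicate 1 with AA and in γδ replicate 3 with AA.

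The 8 genes of the central spindle and cytokinesis had the widest range. Iqgap3, a scaffold of the IQGAP family, was at 14.8, 11.2 and 9.39 CPM in αβ cells without AA and at 37.0, 20.3 and 50.03 CPM with AA. In γδ cells it was at 27.8, 8.41 and 25.1 CPM without AA and at 3.17, 1.66 and 0.373 CPM with AA. It is the 1 gene of the 39, and 1 of 144 of all genes tested, whose groups were apart in opposite directions. Its log2 fold changes were 1.48 ± 0.79 in αβ cells and −3.62 ± 0.86 in γδ cells, with adjusted p of 0.546 and 0.431 in edgeR's test.

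Racgap1, the GTPase-activating subunit of centralspindlin, was at 156, 157 and 99.3 CPM in αβ cells without AA and at 85.8, 94.0 and 112 CPM with AA. The γδ values were 76.8, 130 and 131 CPM without AA and 75.2, 68.7 and 54.3 CPM with AA. The αβ groups overlapped through replicate 3 of each, at −0.64 ± 0.33, and the γδ groups were barely apart, at −0.79 ± 0.33. Ect2, the exchange factor that turns on RhoA at the division plane, was at 35.9, 27.8 and 25.8 CPM in αβ cells without AA and at 57.0, 19.7 and 37.1 CPM with AA. Its γδ levels were 17.7, 39.9 and 47.8 CPM without AA and 7.38, 18.5 and 0.213 CPM with AA. Both contrasts overlapped, at 0.16 ± 0.92 and −2.06 ± 0.95. Anln was at 0 in αβ replicate 1 with AA and at 52.5 CPM in αβ replicate 3 with AA. Kif20a and Kif4, motors of the central spindle, share 29.3% and 15.1% of their exon bases with opposite-strand genes, and Prc1, the bundler of antiparallel microtubules, 11.1%. Together with Kif23 these genes had αβ log2 fold changes from −1.33 to −0.25 and γδ ones from −1.37 to −0.63, with overlap except for Kif20a in γδ cells. A pseudogene of Kif4 was at 10.2 CPM in αβ replicate 1 with AA, where Kif4 was at 10.8 CPM, so the level of Kif4 is uncertain.

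**Figure D5:**
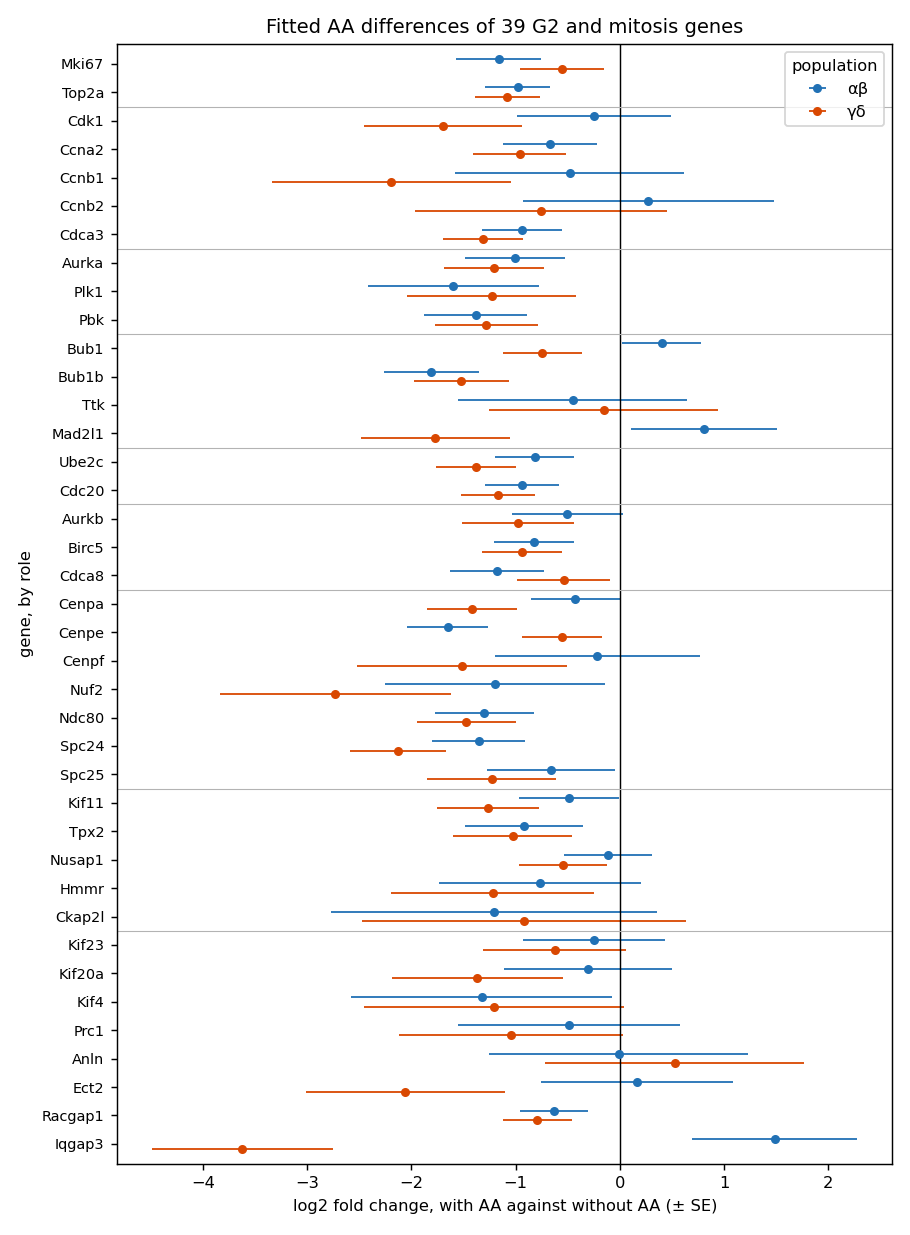
Fitted log2 fold change with AA against without AA (horizontal axis, ± SE) of each gene, ordered by role, in αβ cells (blue) and γδ cells (orange). Most points lie left of 0, and Iqgap3 is the gene whose points are farthest apart, at 1.48 and −3.62.

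Low values were concentrated in 1 library. In γδ replicate 3 with AA, 8 of the 39 genes (20.5%) were under 1 CPM and 4 (Ccnb1, Kif4, Nuf2 and Ckap2l) were at 0, against 15.6% of genes of like mean level (4.4 to 166 CPM) under 1 CPM in that library. In αβ replicate 1 with AA 2 of the 39 (5.13%) were under 1 CPM, against 12.2%. The γδ library replicate 3 with AA held the lowest value of 18 of the 39 genes, and the library labelled γδ replicate 3 without AA the highest of 16.

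The difference between the AA effects of the 2 kinds of cell (γδ minus αβ) was negative for 29 of the 39 genes, with a median of −0.38 against −0.08 over all genes tested. No gene passed the adjusted threshold in edgeR's test, which called 0% of all genes. DESeq2 called 1 of the 39, Iqgap3, and 1.63% of all genes, and voom called 0% of all genes. At an unadjusted p under 0.05, 2 of the 39 were lower, Iqgap3 and Mad2l1, against 5.71% lower and 3.86% higher over all genes. The count of 2 does not exceed the background share. Iqgap3 had a difference of −5.11 ± 1.17, with an adjusted p of 0.442 in edgeR's test, and Mad2l1 one of −2.58 ± 1.00, with 0.469. Bub1 followed at −1.15 ± 0.54. Without both libraries labelled replicate 3 without AA the median of the 39 was 0.07 in place of −0.38 and 1 gene had an unadjusted p under 0.05 in place of 2. That count was also 1 without αβ replicate 3 with AA. Under DESeq2's size factors 34 of the 39 were negative, the median was −0.75 against −0.40 over all genes, and 4 genes had an unadjusted p under 0.05, with 6 in the DESeq2 test. The median was −0.70 with a filter of 5 CPM, against −0.05 over all genes.

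Without AA, 26 of the 39 genes were negative in γδ against αβ cells, with a median of −0.09 against −0.07 over all genes tested. In edgeR's test no gene of all tested passed the adjusted threshold (0%), 0 of the 39 had an unadjusted p under 0.05 (background 2.44% lower and 0.855% higher), and DESeq2 and voom called 0 of the 39, with 0.373% and 0% of all genes. The 3 genes with the smallest p were Cenpe at −0.61 ± 0.38, Mad2l1 at 1.10 ± 0.70 and Cenpa at 0.57 ± 0.43. The direction of the median rests on single libraries: it was 0.11 without γδ replicate 1, 0.0397 without αβ replicate 2, −0.35 without the library labelled γδ replicate 3, −0.21 without that labelled αβ replicate 3 and −0.55 without both of these. This comparison uses the same libraries without AA as the AA contrasts.

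With AA, 31 of the 39 genes were negative in γδ against αβ cells, with a median of −0.37 against −0.19 over all genes tested. edgeR's test called 0.0226% of all genes and none of the 39. DESeq2 called 1 of them, Iqgap3, and 9.53% of all genes, and voom called 0 of them and 3.22% of all genes. At an unadjusted p under 0.05, 1 of the 39 was lower, Iqgap3, at −4.31 ± 0.89 with an adjusted p of 0.102 in edgeR's test (background 12.3% lower and 6.19% higher). The count of 1 lies under the background share, and so does that of 4 genes lower without overlap (background 11.9%). Ect2 at −2.03 ± 0.95 and Spc24 at −0.94 ± 0.44 had the next smallest p. With other scalings the count of 1 was 8 (DESeq2's size factors), 5 (library size alone) or 10 (the DESeq2 test), and it was 8 with a filter of 5 CPM. The medians of the 39 were −0.71 under the size factors and −0.68 under that filter, against −0.50 and −0.03 over all genes. Under each of these, 37 of the 39 were negative. Without the repeat genes the count was 4. The count was 6 without αβ replicate 2 with AA, where Iqgap3 passed the adjusted threshold, 1 of 153 genes called among 24926 tested. It was 3 without αβ replicate 1, γδ replicate 2 or γδ replicate 3, all with AA. It was 2 without αβ replicate 3 with AA, γδ replicate 1 with AA, αβ replicate 2 or 3 without AA, or γδ replicate 1 without AA. Trac, the αβ receptor constant gene, stood at 380 to 694 CPM in γδ cells with AA and at 63.9 to 122 CPM in αβ cells with AA.

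Per kilobase of exon, the highest mean levels over the 6 libraries without AA were those of Cdc20 at 89.8, Birc5 at 53.8 and Aurkb at 52.9 CPM per kb. The lowest were those of Kif23 at 2.33, Anln at 2.18 and Iqgap3 at 1.42 CPM per kb. Kif23, the motor subunit of centralspindlin, stood at the low end, and Racgap1, its partner in that complex, at 17.7 CPM per kb. Cdk1 stood at 3.17 and Ccnb2 at 2.95 CPM per kb.

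Other cell cycle genes gave a frame for these values, and none of the genes named here passed the adjusted threshold in edgeR's test in either contrast. Over all genes tested, 46.7% were negative in αβ cells and 52.7% in γδ cells. At an unadjusted p under 0.05, 6.01% were lower and 4.23% higher in αβ cells, and 3.85% and 3.38% in γδ cells. These shares are the background for each list that follows. Of 50 further mitosis genes, 44 were negative in αβ cells and 45 in γδ cells, with medians of −0.55 and −0.81, and 8 and 7 had an unadjusted p under 0.05, all lower. Smc4, a condensin subunit, was at 529 ± 105 CPM without and 242 ± 18.2 CPM with AA in αβ cells (SD, n = 3), a log2 fold change of −1.31 ± 0.27. Of 33 tested genes of DNA replication and S phase, 31 were negative in αβ and 32 in γδ cells, with medians of −1.12 and −0.95, and 17 and 16 had an unadjusted p under 0.05, all lower. Mcm7, of the replicative helicase, was at 278 ± 7.17 and 142 ± 34.4 CPM in αβ cells and at 224 ± 71.8 and 118 ± 33.2 CPM in γδ cells, without and with AA.

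Genes that act before G2 were counted in the same way. Of 7 G1 cyclins and kinases, 7 were negative in αβ cells (5 with an unadjusted p under 0.05) and 4 in γδ cells (2 with an unadjusted p under 0.05). The γδ share negative was 57.1%, near the 52.7% of all genes tested. Ccnd2, a D-type cyclin, was at 481 ± 57.4 and 170 ± 38.5 CPM in αβ cells without and with AA (−1.70 ± 0.31) and at 345 ± 173 and 303 ± 64.7 CPM in γδ cells (−0.21 ± 0.30). Cdk4, its kinase, was lower without overlap in both, at −0.93 ± 0.23 and −0.87 ± 0.23. Of 21 regulators of cell cycle transcription, 15 and 19 were negative, and 4 in αβ cells and 0 in γδ cells had an unadjusted p under 0.05. Among them Rbbp4, a subunit of MuvB, was at 415 ± 37.0 and 223 ± 68.6 CPM in αβ cells without and with AA (−1.11 ± 0.25). Foxm1, named for its role and outside the rule for named genes, was between 0 and 36.9 CPM and overlapped in both contrasts.

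Of 16 core and regulatory subunits of the anaphase promoting complex, 14 were negative in αβ and 10 in γδ cells, with medians of −0.58 and −0.15, and of 10 genes of the CDK1 switch, 9 and 9. The 10 of 16 is 62.5%, against 52.7% of all genes tested. Of 8 tested cell cycle inhibitors, 5 were negative in αβ cells and 0 in γδ cells, with medians of −0.46 and 0.16. Trp53, the p53 tumour suppressor, was at 355 ± 25.3 and 196 ± 29.7 CPM in αβ cells without and with AA (−1.04 ± 0.23) and at 328 ± 68.4 and 347 ± 43.5 CPM in γδ cells. In γδ cells 2 inhibitors had an unadjusted p under 0.05, both higher. Cdkn1a, the p53 target p21, was at 55.9, 64.9 and 16.4 CPM without AA and at 273, 111 and 188 CPM with AA, a log2 fold change of 2.03 ± 0.51, and was named after its values were seen. Cdkn2b, the CDK4 and CDK6 inhibitor p15, was at 0.0517, 5.01 and 0.0477 CPM without AA and at 94.6, 32.6 and 196 CPM with AA, at 6.02 ± 1.67. Their γδ groups did not overlap, and their adjusted p were 0.510 and 0.635 in edgeR's test. In αβ cells Cdkn1a overlapped, at −0.61 ± 0.49, and Cdkn2b was at 4.03, 6.14 and 3.73 CPM without AA and at 0, 1.53 and 0 CPM with AA.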

How the data were processed

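RNA was sequenced from 12 libraries in 4 groups of 3. The authors deposited a table of raw read counts per gene for all 12 libraries. Per the submitters' processing notes, Bowtie 0.12.2 and build mm8 were used. No source at hand names the counting program, its strand setting or its annotation. Of 55401 gene IDs, 55141 were matched to symbols.

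Counts were scaled with TMM, filtered with filterByExpr (minimum count 10) and tested with edgeR 4.0.16 in R 4.3.3, as a quasi-likelihood fit of 4 group means (8 residual degrees of freedom) with p-values adjusted over all 22107 genes. Log2 fold changes come from this fit, with SE as their size divided by the square root of F. CPM uses all counts. limma 3.58.1 (voom with quality weights) and DESeq2 1.42.0 were alternatives; shares called by DESeq2 are of the genes it gave an adjusted p. The fit was tested on simulated data. Levels are uncertain for genes with at least 10% of exon bases under opposite-strand genes (Kif20a, Ube2c, Kif4, Ccna2 and Prc1). The same holds for Ccnb1, Ccnb2 and Kif4, whose pseudogenes had counts. All of them were kept in the counts of genes.

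The 39 genes, the other gene lists and the markers were chosen with earlier results of these data known. Values per library are given for Mki67, Top2a, Cdk1, Ccnb1 and Plk1, for the gene of each role with the smallest p in αβ cells, and for the 3 genes with the smallest p in each other comparison; of each other list, up to 3 genes with the smallest p in αβ cells were eligible. Left out as untested were Cdkn1c, Cdkn2a and Fen1. No library copies another: the chi-square per degree of freedom between replicates was 45.8 to 228. Same-numbered libraries deviated together with correlations of −0.18 to 0.14 (3 of 18 pairs over 0.1). Libraries of unlike number were not compared, so these values cannot decide whether replicate numbers pair the libraries. The main fit used no pairing. Promoter windows come from RefSeq (GRCm38.p6), and exon lengths from GENCODE M21.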

Additional observations from a re-analysis of the deposited data

Results flagged for a closer look

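Iqgap3 was flagged because its groups with and without AA were apart in opposite directions in the 2 kinds of cell, as were those of 144 of all genes tested. The γδ minus αβ difference of log2 fold changes, the interaction term, was −5.11 ± 1.17 (SE). All 3 αβ libraries with AA (37.0, 20.3 and 50.03 CPM) lay above the 3 without (14.8, 11.2 and 9.39 CPM), and all 3 γδ libraries with AA (3.17, 1.66 and 0.373 CPM) lay under the 3 without (27.8, 8.41 and 25.1 CPM). In edgeR's quasi-likelihood test the unadjusted p was 0.000635 and the adjusted p 0.442, so it fails the correction; in DESeq2 the adjusted p was 0.000201. Groups of 3 libraries are too small for the check for outlying samples.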

How the results depend on the processing

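The direction of the median of the 39 genes held in both AA contrasts under every alternative run. Low counts, wide spread and 3 libraries a group limit precision. For counts by unadjusted p in the alternatives, the share of all genes was not counted.

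In αβ cells, genes lower by unadjusted p numbered 2 with DESeq2 size factors, 7 with library size alone, 3 with a filter of 5 CPM in 3 libraries, 4 in DESeq2, and 3 to 13 with 1 library left out. Genes higher numbered 1 with size factors, the 5 CPM filter and only the groups compared, 2 in DESeq2, and 0 to 1 with 1 library left out. The median was −0.30 with size factors and in DESeq2, −0.35 with the 5 CPM filter and −1.14 with voom. Over all genes it was 0.51, 0.51, 0.02 and 0.02 in these fits. DESeq2 called 1 gene, Cenpe. Cdk1 turned to 0.23 (size factors and DESeq2), 0.0068 (library size), 0.15 (5 CPM filter) and, with 1 library left out, ran from −0.85 to 0.24. Genes lower without overlap numbered 10 to 20 in αβ and 20 to 34 in γδ cells with 1 library left out, and 20 in αβ cells without both libraries labelled replicate 3 without AA, and 8 and 21 without repeat genes, alternatives chosen after seeing the data. With 1 library left out the background was 10.4% to 18.3% in αβ and 9.49% to 12.5% in γδ cells. Without repeat genes it was 6.28% and 6.56%.

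In γδ cells, 3 of the 39 genes were called with no filter (Ccnb1, Nuf2 and Spc24) and 2 in DESeq2. Of all genes, the fit with no filter called 146 of 44233 and DESeq2 called 1.43%. Ccnb1 and Nuf2 were at 0 in γδ replicate 3 with AA. Genes lower by unadjusted p numbered 9 without both libraries labelled replicate 3 without AA and 11 to 19 with 1 library left out.

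For the difference of AA effects, DESeq2 and the fit with no filter each called 1 of the 39 genes, Iqgap3. Of all genes, DESeq2 called 1.63% and the fit with no filter called 217 of 44233. Genes lower numbered 4 with size factors and no filter, 6 in DESeq2, 1 with voom and without both replicate 3 libraries, and 1 to 3 with 1 library left out; genes higher, 0 to 1. The median was −0.75 with size factors and in DESeq2, −0.70 with the 5 CPM filter and 0.0665 without both replicate 3 libraries. Over all genes it was −0.40, −0.40, −0.05 and −0.14 in these fits.

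For γδ against αβ cells without AA, 1 gene was lower with voom, 1 lower and 1 higher with only the groups compared, and the median was −0.55 without both replicate 3 libraries and −0.35 to 0.11 with 1 library left out. With AA, 1 of the 39 genes, Iqgap3, was called with no filter and in DESeq2, and 0 to 1 with 1 library left out. Of all genes, the fit with no filter called 672 of 44233 and DESeq2 called 9.53%. Genes lower numbered 8 with size factors and the 5 CPM filter, 5 with library size and no filter, 10 in DESeq2, 3 with robust estimation, 4 without repeat genes and 1 to 6 with 1 library left out; genes higher, 0 to 1. The median was −0.71 with size factors and in DESeq2 and −0.68 with the 5 CPM filter. Over all genes it was −0.50, −0.50 and −0.03 in these fits. The summed level with AA over without, per CD3 count, was 1.89 in αβ cells (1.43 without both replicate 3 libraries, 1.08 to 2.41 with 1 library left out, namely 2.37 and 2.13 without αβ replicate 1 or 2 without AA and 2.17 without replicate 1 with AA, and 0.816 without αβ replicate 2 with AA and αβ replicate 3 without) and 0.605 in γδ cells (0.925, and 0.489 to 0.925, with 0.702 without γδ replicate 2 with AA), the left-out values being chosen after seeing the data.

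With a replicate block, whose numbers are not known to pair the libraries, 0 of the 39 genes were called in any comparison, the AA medians were −0.79 and −1.21, and 1 gene was lower in the difference. Apart from the alternatives' own construction, the cause of these shifts was not tested.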
